A study of Mus musculus with 9 samples.

Results

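Glycam1, Madcam1, Chst4, Cd209b, Gpr182, Ltb and Ltbr are grouped here as lymph node vessel and stroma genes. Within the group, Ltb is a gene of lymphocytes and Cd209b a gene of macrophages. The signals of the 7 genes were followed in the stromal vascular fraction (SVF) of mouse fat over the first days of wound repair priming. The 7 genes were chosen by their measured differences between days on these same arrays, so their values are given as a description and without a test. They are 7 of 18193 genes that had a probe set of their own on the array and 7 of 11796 genes that entered the fit. All 7 passed the filter on low values, with 8 probe sets, 2 of them for Cd209b. SVFs are the stromal, vascular and blood-derived cells that remain when fat is digested and the adipocytes are removed. RNA was taken from the SVF of inguinal subcutaneous fat of wild type Balb/c mice aged 10 weeks, 3 individual mice on each of days 0, 1 and 3 after injury, 1 array per mouse. Priming, in the study, is mincing of the fat together with ligation of its feeding artery. The labels name injury only and place day 0 in the same series as days 1 and 3, and the study compared both later days with day 0. All groups share strain, genotype, age and tissue, and differ in the day. The study's methods describe its mice as male, and the labels used here do not give the sex.

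Lymph nodes take up lymphocytes from the blood through high endothelial venules (HEVs), whose lining cells carry sulfated and sialylated sugars on mucin-like proteins to which passing lymphocytes attach. Lymph enters the node through sinuses lined by lymphatic endothelium and by macrophages that catch particles and microbes. HEVs and the stromal cells of the node are kept in their state by lymphotoxin, which lymphocytes carry on their surface and which signals through the lymphotoxin beta receptor and NF-kB. The inguinal fat pad of the mouse surrounds the inguinal lymph node, and the sources used here do not state whether the node was taken out before digestion.

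On day 0 all 7 genes were called present on every array. On day 1, 4 of the 7 genes (Glycam1, Cd209b, Gpr182 and Ltb) were lower on all 3 arrays than on any day 0 array, where 26.1% of all genes tested were placed in this way, and 0 of the 7 were higher on all 3 arrays, against 13.8% of all genes. On day 3, 5 of the 7 (the same 4 and Madcam1) lay below every day 0 array, against 24.6% of all genes, and 1 (Ltbr) lay above every day 0 array, against 22.6%. Between days 1 and 3, Cd209b and Ltb (2 of 7) were lower on day 3 without overlap, against 11.5% of all genes, and 0 were higher, against 23.4%. Nothing about the 7 genes can be read from these counts, since the same contrasts served to choose them. The arrays were scaled to equal trimmed mean signal, and the median gene differed by -0.13 on the log2 scale between days 1 and 0, by -0.03 between days 3 and 0 and by 0.09 between days 3 and 1. The signs of the 7 genes on days 1 and 3 against day 0 were kept with median centring and with quantile normalization. RNA was taken from a mixture of cells, so fewer cells of a type and less RNA per cell cannot be told apart.

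**Figure D1:**
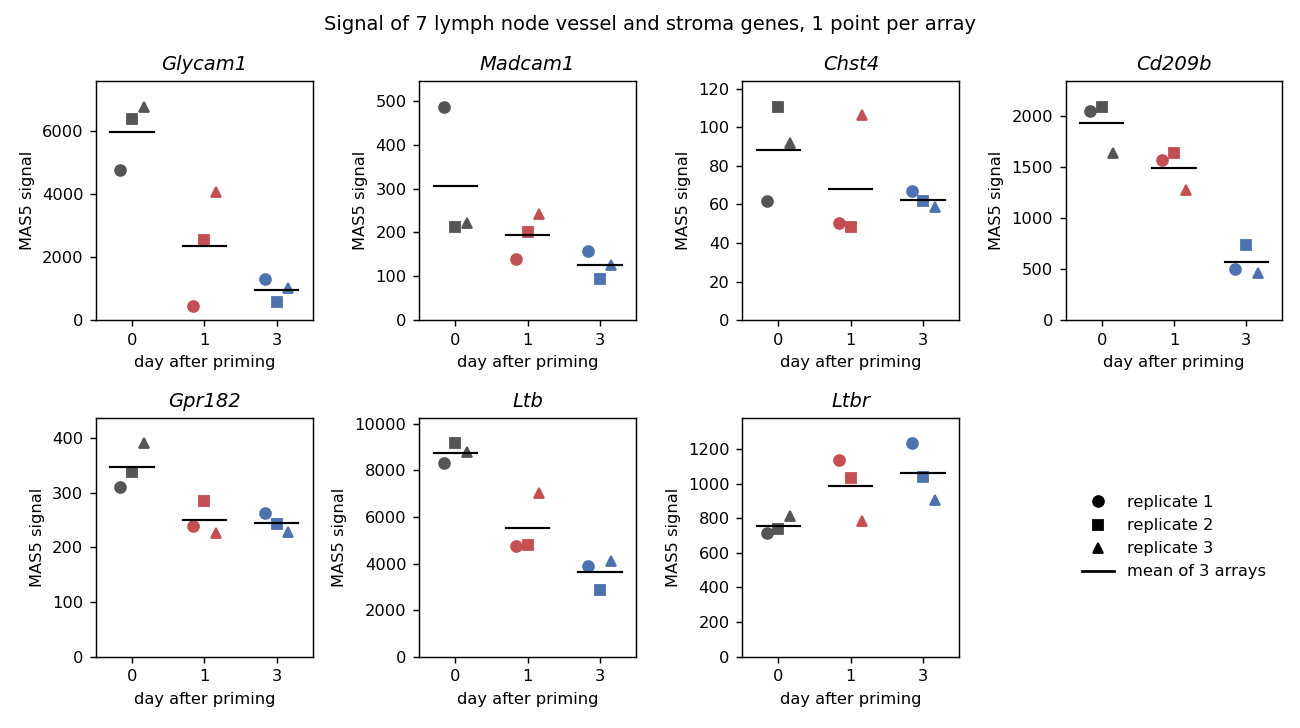
MAS5 signal (linear scale, vertical axis from 0, a separate range for each gene) of the 7 genes against the day after priming, with 1 point per array, the marker shape giving the replicate and the horizontal line the mean of 3 arrays. The day 3 points of Glycam1, Madcam1, Cd209b, Gpr182 and Ltb lie below all day 0 points, those of Ltbr lie above them, and Glycam1 spreads from 432 to 4064 on day 1.

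Glycam1 encodes a mucin-like protein that HEV cells secrete, and the gene is also active in mammary epithelium. Its signal was 4754, 6369 and 6767 on day 0 (replicates 1, 2 and 3), 432, 2535 and 4064 on day 1, and 1289, 562 and 1033 on day 3, and all 9 arrays called it present. The day 0 arrays were the highest without overlap, day 1 was spread over a wide range, and the day 3 arrays all lay inside the range of day 1. The mean signal was 5963 ± 1066 (SD, n = 3) on day 0, 2343 ± 1823 on day 1 and 962 ± 369 on day 3. On the log2 scale the difference from day 0 was -1.84 ± 0.63 on day 1 and -2.70 ± 0.63 on day 3, or 27.9% and 15.4% of the day 0 level. The error is limma's standard error, as for every difference below unless stated otherwise. Day 3 differed from day 1 by -0.86 ± 0.63, which is little more than the error. Day 1 replicate 1 had the lowest value of all arrays, and without it the day 1 difference was -0.88, while without day 1 replicate 3 it was -2.49. The day 3 difference stayed between -2.95 and -2.35 whichever array was left out.

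Madcam1 encodes an addressin, an adhesion protein of HEVs in mucosal nodes and of gut venules that binds the integrin of Itga4 and Itgb7, and it also occurs on stromal cells of lymph nodes. Its signal was 487, 212 and 222 on day 0, 138, 201 and 241 on day 1, and 157, 93.1 and 126 on day 3. Day 3 replicate 1 was called absent and the other 8 arrays were called present. The MAS5 detection p-values of the present arrays were 0.0239 to 0.0461, not far from that of the absent array (0.0676). Day 0 replicate 1 stood above all other arrays, days 0 and 1 overlapped, and day 3 lay below every day 0 array. The differences from day 0 were -0.59 ± 0.33 on day 1 and -1.21 ± 0.33 on day 3 (43.2% of the day 0 level). Without day 0 replicate 1 they were -0.20 and -0.82.

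Chst4 encodes the sulfotransferase of HEV cells that adds sulfate to the sugars of HEV mucins, and it had the fewest present calls of the 7 genes. Its signal was 61.7, 111 and 92 on day 0, 50.1, 48.2 and 106 on day 1, and 67, 61.8 and 58.5 on day 3. The detection call was present for 3 arrays of day 0, 1 of day 1 and 2 of day 3. The days overlapped in each comparison. The differences from day 0 were -0.43 ± 0.34 on day 1 and -0.46 ± 0.34 on day 3, both close to their error, and the day 1 value was -0.80 without day 1 replicate 3 and -0.23 without day 1 replicate 2.

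Cd209b encodes a C-type lectin (SIGN-R1) by which macrophages of the splenic marginal zone and of lymph node sinuses bind microbial sugars. Its signal was 2048, 2093 and 1643 on day 0, 1565, 1635 and 1278 on day 1, and 503, 734 and 463 on day 3. All 9 arrays called it present, and the 3 days followed each other downward without overlap. The differences were -0.37 ± 0.18 from day 0 to day 1, -1.79 ± 0.18 from day 0 to day 3 (28.9% of the day 0 level) and -1.42 ± 0.18 from day 1 to day 3. The other Cd209b probe set read 1595, 1610 and 1363 on day 0, 1188, 1120 and 873 on day 1, and 517, 563 and 355 on day 3. It gave the same order, with differences of -0.53 ± 0.21, -1.69 ± 0.21 and -1.16 ± 0.21. The errors of this probe set are plain pooled standard errors over the 9 arrays and not limma's. Leaving out any array kept the day 3 difference between -1.99 and -1.66. Cd209b belongs to a family of closely related genes, and the array's probes may not separate all copies.

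Gpr182 encodes a receptor of lymphatic and sinusoidal endothelium that binds chemokines without the usual signalling. Its signal was 311, 338 and 390 on day 0, 239, 285 and 226 on day 1, and 263, 242 and 228 on day 3, present on all 9 arrays. Both later days lay below day 0 without overlap and overlapped with each other. The differences from day 0 were -0.47 ± 0.15 and -0.50 ± 0.15, and day 3 differed from day 1 by -0.03 ± 0.15. With quantile normalization the day 1 difference was -0.26.

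Ltb encodes lymphotoxin beta, which anchors lymphotoxin alpha in the membrane of B and T cells and of lymphoid tissue inducer cells. Its signal was 8296, 9157 and 8788 on day 0, 4773, 4800 and 7042 on day 1, and 3905, 2884 and 4091 on day 3. The 3 days did not overlap, and day 1 replicate 3 stood between the other day 1 arrays and day 0. The differences were -0.68 ± 0.17 from day 0 to day 1, -1.29 ± 0.17 from day 0 to day 3 (41% of the day 0 level) and -0.60 ± 0.17 from day 1 to day 3.

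Ltbr encodes the receptor of membrane lymphotoxin and of LIGHT (Tnfsf14), which stromal, endothelial and myeloid cells carry and lymphocytes lack. Its signal was 716, 740 and 814 on day 0, 1135, 1033 and 784 on day 1, and 1232, 1039 and 906 on day 3. It ran opposite to its ligand: day 3 lay above every day 0 array, and on day 1 replicate 3 fell inside the day 0 range. The differences from day 0 were 0.36 ± 0.16 on day 1 and 0.48 ± 0.16 on day 3 (139% of the day 0 level).

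**Figure D2:**
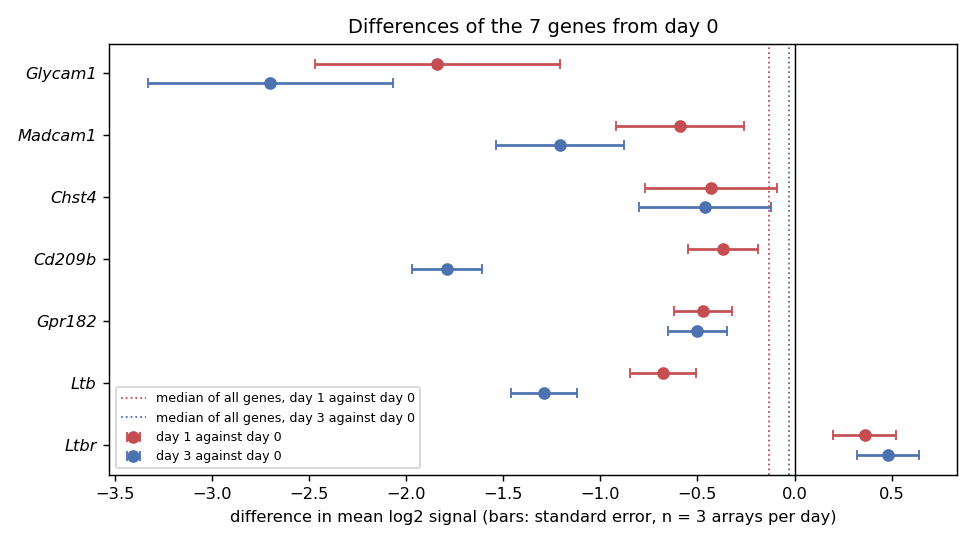
Difference in mean log2 signal from day 0 (horizontal axis) of the 7 genes on day 1 and day 3, with bars of 1 standard error from the fit over 9 arrays and dotted lines at the median of all genes. Glycam1 lies farthest from 0 on both days and has the widest bars, Cd209b separates most between the days (-0.37 and -1.79), and Ltbr alone lies above 0.

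The bases before the start sites are shown for a lymphotoxin ligand (Ltb) and for the HEV adhesion proteins Madcam1 and Glycam1, because the pathway of the lymphotoxin receptor ends in NF-kB. These 3 were chosen after the matches were seen, and Cd209b and Ltbr, not printed, held 1 match each. The sequences are the 250 bases before the RefSeq start (GRCm38.p6), read 5′ to 3′ on the gene's strand at chr10:79664309-79664558 (plus strand) for Madcam1, chr17:35194257-35194506 (plus strand) for Ltb and chr15:103565082-103565331 (minus strand) for Glycam1. Capitals mark matches to GGGNNNNNCC, a loose form of the kappaB motif, searched on both strands with overlapping matches counted.
Madcam1: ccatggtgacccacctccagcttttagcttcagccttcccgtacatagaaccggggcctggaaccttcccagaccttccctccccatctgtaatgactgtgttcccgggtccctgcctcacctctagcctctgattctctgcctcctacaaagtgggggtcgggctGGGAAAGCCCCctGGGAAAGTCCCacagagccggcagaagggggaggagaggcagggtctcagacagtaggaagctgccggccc
Ltb: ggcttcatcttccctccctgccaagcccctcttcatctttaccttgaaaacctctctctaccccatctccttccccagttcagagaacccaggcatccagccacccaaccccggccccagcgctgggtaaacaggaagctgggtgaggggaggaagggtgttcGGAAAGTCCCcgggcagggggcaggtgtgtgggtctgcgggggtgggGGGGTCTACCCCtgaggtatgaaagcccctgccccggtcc
Glycam1: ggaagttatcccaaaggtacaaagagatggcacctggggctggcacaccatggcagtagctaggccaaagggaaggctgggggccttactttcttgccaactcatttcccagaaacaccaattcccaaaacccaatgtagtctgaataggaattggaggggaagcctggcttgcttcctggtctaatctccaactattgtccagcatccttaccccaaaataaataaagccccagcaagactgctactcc
The Madcam1 sequence held 5 matches, with GGGAAAGCCC at positions -84 to -75 and GGGAAAGTCC at -71 to -62 from the start site. The Ltb sequence also held 5, among them GGAAAGTCCC at -87 to -78 read on the gene's strand and an overlapping group at -40 to -29. In the Glycam1 sequence 0 matches were found, which says only that these letters are not in this window. Of the 6 genes with an entry (all but Gpr182), 4 held at least 1 match, as did 45.8% of 32851 mouse promoters of this length, and 25.5% held 2 or more. A match is a description of the letters and not a measured site.

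Of 21 other genes of HEVs and of lymphocyte homing, 17 were tested, and 4 of them passed on each of days 1 and 3. Adjusted over all genes, 1 was higher and 3 were lower on day 1, against 10.7% and 17.9% of all genes, and 1 was higher and 3 were lower on day 3, against 13.6% and 12.5%. The median difference was -0.26 on day 1 and -0.14 on day 3. The integrin chain Itgb7, partner of Madcam1 on lymphocytes, fell on both days (-1.01 ± 0.18, adjusted p = 0.00261, and -1.34 ± 0.18, adjusted p = 0.000359), while its partner chain Itga4 differed by -0.44 and -0.07 and did not pass. Podxl2, a mucin-like protein of HEVs, was called present on no day 1 array and was at least 4.6-fold lower there (-2.37 ± 0.64, adjusted p = 0.0191, or 0.0681 without day 0 replicate 3). The lipid exporter Spns2 fell on day 1 by 0.54 ± 0.18 (adjusted p = 0.0416) and Vcam1, an adhesion protein of activated endothelium and stroma, rose by 0.42 ± 0.12 (adjusted p = 0.0241). Both calls were lost with quantile normalization, the former also with median centring, and, with single arrays left out, in 6 and 4 of 9 fits. On day 3 the sialyltransferase St3gal6 (-0.72 ± 0.15, adjusted p = 0.00432, or 0.0518 with the mean of its probe sets) and the adhesion protein Icam1 (-0.47 ± 0.11, adjusted p = 0.0105) fell. The fucosyltransferase Fut4, without a present call on day 0, stood at least 2.13-fold higher (1.09 ± 0.26, adjusted p = 0.00977), a fold that equals the estimate. From day 1 to day 3, 1 gene was higher (Fut4, 1.00 ± 0.26) and 2 were lower, St3gal6 (-0.94 ± 0.15) the most, against 9.66% and 4.54% of all genes. The count of 3 lower genes on day 1 was 1 without day 0 replicate 3 and 5 without day 1 replicate 3, and the count of 3 on day 3 was 6 without day 0 replicate 1 or day 1 replicate 3 and 5 with quantile normalization. The gain of Fut4 after day 1 was lost with quantile normalization (0.85, adjusted p = 0.0535) and without day 1 replicate 2 or any of the day 3 arrays, and the rise of Vcam1 without day 0 replicate 1 or 3 or day 1 replicate 1 or 2. B3gnt3 and Fut7, further enzymes of HEV mucin sugars, were below the filter, and Enpp2 was not analysed here.

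In the lymphotoxin pathway Lta was lower and Tnfsf14 and Tnf were higher on both days. Of 14 genes beside Ltb and Ltbr, 12 were tested. On day 1, 4 were higher and 2 lower (median 0.06), against 10.7% and 17.9% of all genes. On day 3, 4 were higher and 5 lower (median -0.09), against 13.6% and 12.5%. Lta, which pairs with Ltb in the membrane form, fell by 1.45 ± 0.20 on day 1 (adjusted p = 0.000536). On day 3, with no array calling it present, it was at least 3.06-fold lower (-1.61 ± 0.20, adjusted p = 0.000214), a fold that equals the estimate. Tnfsf14 (LIGHT), the other ligand of Ltbr, had no present call on day 0, and its level was at least 3.14-fold higher on day 1 (1.65 ± 0.34, adjusted p = 0.00533) and at least 2.09-fold higher on day 3 (1.07 ± 0.34, adjusted p = 0.0389). These folds also equal the estimates. The day 3 call was lost without day 0 replicate 1 or any day 3 array (0.0668 to 0.138 for the adjusted p), and had an adjusted p of 0.0528 with a replicate block. Tnf, a neighbour of Lta and Ltb in the genome and a ligand of the TNF receptors, rose by 2.39 ± 0.16 on day 1 (adjusted p = 1.92e-06) and by 1.58 ± 0.16 on day 3 (adjusted p = 4.7e-05), and was lower on day 3 than on day 1 (-0.81 ± 0.16, adjusted p = 0.00785). Its receptor Tnfrsf1b rose on both days (0.72 ± 0.14, adjusted p = 0.00311, and 0.63 ± 0.14, adjusted p = 0.00608). Tnfrsf14, the receptor that LIGHT shares with Btla, fell by 0.63 ± 0.18 on day 1 (adjusted p = 0.0244) and by 0.99 ± 0.18 on day 3 (adjusted p = 0.00244), the day 1 call being lost with quantile normalization and in 4 fits with an array left out (day 0 replicate 2 or 3, day 1 replicate 1 or 2). Downstream, the ubiquitin ligase Birc2 fell on day 3 by 0.66 ± 0.14 (adjusted p = 0.00608). The kinase Map3k14 and the NF-kB subunits Nfkb2 and Relb, which carry the signal of Ltbr, differed from day 0 by -0.46 to 0.21 and did not pass on either day. From day 1 to day 3, 0 of the 12 were higher in limma's fit and 3 were lower, against 9.66% and 4.54% of all genes. Likewise 0 were higher at an unadjusted p under 0.05 and in an analysis of variance by day. Leaving out any day 0 or day 3 array brought the 5 lower genes of day 3 to 3, and leaving out day 0 replicate 1 or day 3 replicate 1 or 2 brought the 4 higher genes to 2. The 2 lower genes of day 1 became 1 without day 0 replicate 2 or 3 or day 1 replicate 1 or 2, and with quantile normalization. Traf3 and Chuk were not analysed here.

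Of 16 genes of lymphoid stroma and of its chemokines, 13 were tested, and calls in both directions were made. Some of them, such as Fcer2a, Cxcr5 and Ccr7, are carried by lymphocytes, and Ccr7 is in the lymphocyte list below too. The counts and medians of the list are therefore not of stroma alone. On day 1, 3 were higher and 5 lower (median -0.79), against 10.7% and 17.9% of all genes. On day 3, 2 were higher and 8 lower (median -1.06), against 13.6% and 12.5%. Cxcl13, the chemokine by which follicular stroma draws B cells and which lymphotoxin is known to induce, rose on day 1 by 0.83 ± 0.14 (adjusted p = 0.00156) and was below day 0 on day 3 (-1.28 ± 0.14, adjusted p = 7.1e-05), a difference of -2.12 ± 0.14 between these days (adjusted p = 1.19e-05). Its signal was 6204 to 7630 on day 0, 10362 to 14071 on day 1 and 2581 to 3300 on day 3, so the days did not overlap. Its receptor Cxcr5 differed by -1.01 ± 0.40 on day 1 (not called) and by -1.34 ± 0.40 on day 3 (adjusted p = 0.03, lost in 5 of 9 fits with an array left out, those without any day 0 array or day 3 replicate 1 or 2). Some genes are known from follicular dendritic cells, although not from these alone. Of these, calls for a fall on both days were made for Cr2 (-1.17 ± 0.32, adjusted p = 0.0188, and -1.27 ± 0.32, adjusted p = 0.013). The same held for Mfge8 (-0.83 ± 0.13, adjusted p = 0.00123, and -0.72 ± 0.13, adjusted p = 0.00253). It also held for Fcer2a, which B cells also carry (-1.45 ± 0.33, adjusted p = 0.00894, and -1.58 ± 0.33, adjusted p = 0.00525). Clu was called lower on day 3 (-1.78 ± 0.39, adjusted p = 0.00686) and not on day 1 (-1.12 ± 0.39, adjusted p = 0.0517). The call of Cr2 on day 1 was lost without day 0 replicate 1 or day 1 replicate 1 or 2. Its call on day 3 was lost without day 0 replicate 1 or day 3 replicate 2. Against these, Pdpn, a membrane protein of reticular and other fibroblasts, rose by 1.92 ± 0.18 on day 1 (adjusted p = 2.17e-05) and 1.35 ± 0.18 on day 3 (adjusted p = 0.000257). Bst1, a surface enzyme of stroma and of myeloid cells, rose by 3.25 ± 0.18 (adjusted p = 4.6e-07) and 2.43 ± 0.18 (adjusted p = 5.22e-06). The count of 5 lower genes on day 1 ran from 2 (without day 0 replicate 1 or day 1 replicate 1 or 2) and 3 (without day 0 replicate 3, and with median centring) to 8 (without day 1 replicate 3), and the count of 8 on day 3 was 5 without day 0 replicate 1 or day 3 replicate 2. From day 1 to day 3, 0 were higher in limma's fit and 3 were lower, against 9.66% and 4.54% of all genes. Likewise 0 were higher at an unadjusted p under 0.05 and in the analysis of variance. Ccl19 and Ccl21a were not used, since their probe sets carry several gene symbols.

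Among sinus endothelium and sinus macrophages, 22 of 23 genes beside Cd209b and Gpr182 were tested. On day 1, 2 were higher and 6 lower (median -0.19), against 10.7% and 17.9% of all genes. On day 3, 5 were higher and 8 lower (median -0.24), against 13.6% and 12.5%. Between the later days 3 were higher and 5 lower, against 9.66% and 4.54%. The relatives of Cd209b were also lower on day 3. Cd209d fell by 1.55 ± 0.20 (adjusted p = 0.000251) and Cd209a by 1.37 ± 0.25 (adjusted p = 0.00241) on day 3, with day 1 values of -0.31 and -0.51 that did not pass. Timd4, a phosphatidylserine receptor of resident macrophages, fell on day 3 (-1.20 ± 0.15, adjusted p = 0.000165). Other macrophage genes of the list did the reverse. Cd5l, a secreted macrophage protein, rose by 1.89 ± 0.30 on day 1 (adjusted p = 0.00103) and 3.94 ± 0.30 on day 3 (adjusted p = 5.27e-06), with a further 2.05 ± 0.30 between these days. The scavenger receptor Stab1 rose on day 3 by 1.22 ± 0.16 (adjusted p = 0.000334). The mannose receptor Mrc1 rose on day 1 by 0.58 ± 0.15 (adjusted p = 0.0154, lost in 4 fits without day 0 replicate 1 or 3 or day 1 replicate 1 or 2). Mrc1 was also called higher on day 3 (0.48 ± 0.15, adjusted p = 0.0369), a call lost with median centring. That call was lost too without day 0 replicate 1 or 3 or day 3 replicate 1 or 2. Siglec1, a sialic acid receptor of subcapsular sinus macrophages, differed by 0.08 ± 0.38 on both days by the probe set used, which was called present on 6 of 9 arrays. Another Siglec1 probe set, present on 3 of 9 arrays and below the filter, read 36.9 to 42 on day 0, 82 to 187 on day 1 and 121 to 178 on day 3, so the probe sets disagreed. Marco, a scavenger receptor of medullary macrophages, was below the filter and present on 1 of 9 arrays.

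On the endothelial side, Prox1, the transcription factor of lymphatic endothelium, fell on day 1 (-1.10 ± 0.29, adjusted p = 0.0169, lost in 4 fits, without day 0 replicate 1 or 3 or day 1 replicate 1 or 2). Clec4g, a lectin of sinus endothelium, was called present on no day 1 array and was at least 2.14-fold lower (-1.10 ± 0.26, adjusted p = 0.0106), a fold that equals the estimate. Ramp2, a partner of the adrenomedullin receptor, fell on day 1 by 0.83 ± 0.11 (adjusted p = 0.000439) and was lower on day 3 too (-0.54 ± 0.11, adjusted p = 0.00526). Lyve1, a hyaluronan receptor of lymphatic endothelium and of some macrophages, differed by 0.15 ± 0.13 on day 1 (not called) and fell on day 3 by 0.71 ± 0.13 (adjusted p = 0.00272). Ackr4, a chemokine-scavenging receptor of the sinus ceiling, rose on day 3 by 0.72 ± 0.15 (adjusted p = 0.00479). Flt4, of the same list, differed by -0.21 ± 0.17 on day 1 (not called) and was called higher on day 3 (0.51 ± 0.17, adjusted p = 0.0416). It was also higher on day 3 than on day 1 (0.72 ± 0.17, adjusted p = 0.0159). With an array left out, these 2 calls of Flt4 were lost in 5 and 3 fits. The 6 lower sinus genes of day 1 were 3 without day 0 replicate 3, the 2 higher ones were 1 without day 0 replicate 1 or 3 or day 1 replicate 1 or 2, and the 5 higher ones of day 3 were 3 without day 0 replicate 1 or day 3 replicate 1 or 2. The 5 genes lower on day 3 than on day 1 were 3 without day 1 replicate 1 or 2 or day 3 replicate 2 or 3.

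**Figure D3:**
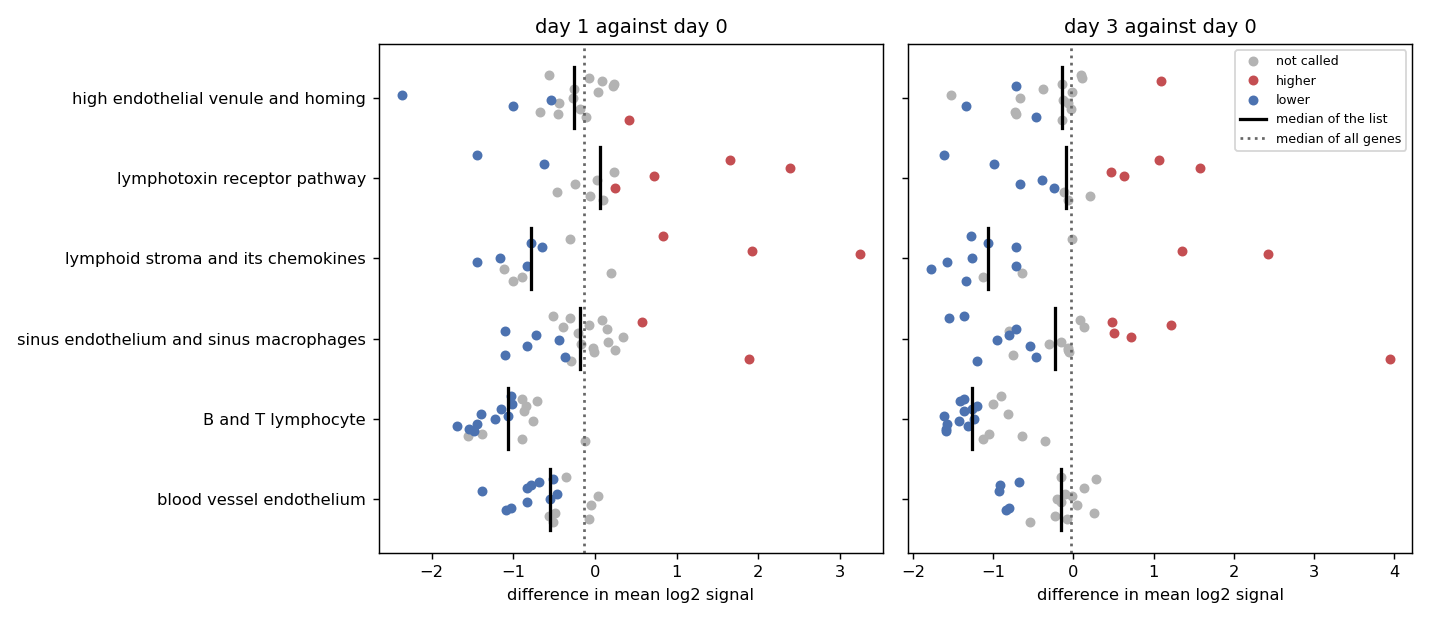
Difference in mean log2 signal from day 0 (horizontal axis) on day 1 (left) and day 3 (right), with 1 point per tested gene of 6 lists, the 7 genes left out. Coloured points passed an adjusted p under 0.05, black bars are list medians and the dotted line is the median of all genes. The lymphocyte list has the lowest medians, -1.07 and -1.27, and every other list spreads to both sides of 0 on at least 1 of the days.

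Lymphocytes fill lymph nodes and carry Ltb, so their markers are given beside the 7 genes. Of 25 B and T lymphocyte genes, 19 were tested. On day 1, 0 were higher and 10 lower (median -1.07), against 10.7% and 17.9% of all genes. On day 3, 0 were higher and 12 lower (median -1.27), against 13.6% and 12.5%. Between days 1 and 3, 0 were higher and 0 lower, against 9.66% and 4.54%. At an unadjusted p under 0.05 in the same limma fit, 0 were higher and 16 lower on each of days 1 and 3. Between these days 0 were higher and 1 lower. The analysis of variance by day with the methods' 2-fold limit gave 0 higher and 4 lower, 0 higher and 6 lower, and 0 of either. The 3 largest called falls on each day were of T cell genes. Cd6 fell by 1.69 ± 0.36 (adjusted p = 0.00591), Cd8a by 1.54 ± 0.34 (adjusted p = 0.0077) and Cd8b1 by 1.48 ± 0.38 (adjusted p = 0.0143) on day 1, and Cd3g by 1.61 ± 0.30 (adjusted p = 0.00241), Cd8a by 1.59 ± 0.34 (adjusted p = 0.00582) and Cd8b1 by 1.59 ± 0.38 (adjusted p = 0.00986) on day 3. Cd3e, a defining T cell gene, fell on day 1 by 1.40 ± 0.34 (adjusted p = 0.0127) and differed by -0.81 ± 0.34 on day 3 (not called). The summed signal of the 19 genes was 63189 to 70720 on day 0, 19129 to 53671 on day 1 and 26468 to 40329 on day 3, and the 4 defining markers tested (Cd79a, Cd79b, Ms4a1 and Cd3e) were called present on all 9 arrays. The counts rest on single arrays: 10 became 6 without day 0 replicate 1, 5 without day 0 replicate 3 and 17 without day 1 replicate 3, and 12 became 6 without day 0 replicate 3 or day 3 replicate 1 and 5 without day 3 replicate 2. Between days 1 and 3, 2 genes were called higher without day 1 replicate 3 and 6 lower without day 1 replicate 1. Lck and Tcf7 were not analysed here.

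All 17 genes listed for blood vessel endothelium were tested. On day 1, 0 were higher and 10 lower (median -0.55), against 10.7% and 17.9% of all genes. On day 3, 0 were higher and 5 lower (median -0.16), against 13.6% and 12.5%. From day 1 to day 3, 3 were higher and 0 lower, against 9.66% and 4.54%. At an unadjusted p under 0.05 in the same limma fit the counts were 0 and 13, 0 and 6, and 6 and 0, and the analysis of variance gave 0 and 3, 0 and 0, and 0 and 0. Without day 0 replicate 3, 1 gene was called higher on day 3. Vwf (von Willebrand factor) fell on both days (-1.38 ± 0.26, adjusted p = 0.00313, and -0.93 ± 0.26, adjusted p = 0.0218), the day 3 call being lost without day 0 replicate 2 or 3 or day 3 replicate 3. The transcription factor Sox17 also fell on both days (-1.09 ± 0.14, adjusted p = 0.000304, and -0.84 ± 0.14, adjusted p = 0.00155). So did the tight junction gene Cldn5 (-1.03 ± 0.14, adjusted p = 0.000347, and -0.80 ± 0.14, adjusted p = 0.00162). The angiopoietin receptor Tek was lower on both days too (-0.78 ± 0.15, adjusted p = 0.00355, and -0.91 ± 0.15, adjusted p = 0.00121). Tie1 was 0.96 ± 0.19 higher on day 3 than on day 1 (adjusted p = 0.00666). Pecam1, the general endothelial marker, was present on all 9 arrays at 2202 to 3874 and differed by -0.35 ± 0.15 and -0.15 ± 0.15, which did not pass. The summed signal was 32512 to 43813 on day 0, 25201 to 28406 on day 1 and 28978 to 33363 on day 3.

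Mammary epithelium, the other tissue known for Glycam1, was hardly detected in these mice, which the study's methods describe as male. Of 13 mammary and surface epithelium genes on the array, 11 were below the filter, among them the milk protein genes Csn2 and Csn3 and the keratin Krt14. Csn3 and Krt14 were called present on 0 of 9 arrays by each of their probe sets, Csn2 on 3 and 0, and Epcam on 2 by each. The 2 tested genes were Cdh1, which did not pass, and Esr1, which many stromal cells express and which differed by -0.52 ± 0.14 on day 1 (adjusted p = 0.0184) and -0.54 ± 0.14 on day 3 (adjusted p = 0.0153), both calls being lost without day 0 replicate 3, the day 1 call also without day 1 replicate 2 and the day 3 call without day 3 replicate 3. Their summed signal was 1394 to 1815 on day 0, 1027 to 1242 on day 1 and 1007 to 1188 on day 3.

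Set beside each other array by array, the genes and the marker lists followed each other in part. For each array the log2 signal was taken relative to the mean of day 0, and for a list the mean over its tested genes. The lymphocyte list stood at -2.01, -0.92 and -0.41 on the day 1 arrays and at -1.31, -1.48 and -0.81 on day 3. Day 1 replicate 1 was thus lowest for the lymphocytes and for Glycam1, Madcam1 and Ltb, and day 1 replicate 3 was highest for 15 of the 19 lymphocyte genes and for Glycam1, Madcam1, Chst4 and Ltb, where 40.5% of all genes were highest. The other 3 genes (Cd209b, Gpr182 and Ltbr) were lowest on day 1 replicate 3, and Ltbr was highest on day 1 replicate 1. On day 3 the order parted. Replicate 3 was highest for 18 of the 19 lymphocyte genes and for Ltb, whereas replicate 1 was highest for Glycam1, Madcam1, Chst4, Gpr182 and Ltbr, against 31.7% of all genes.

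**Figure D4:**
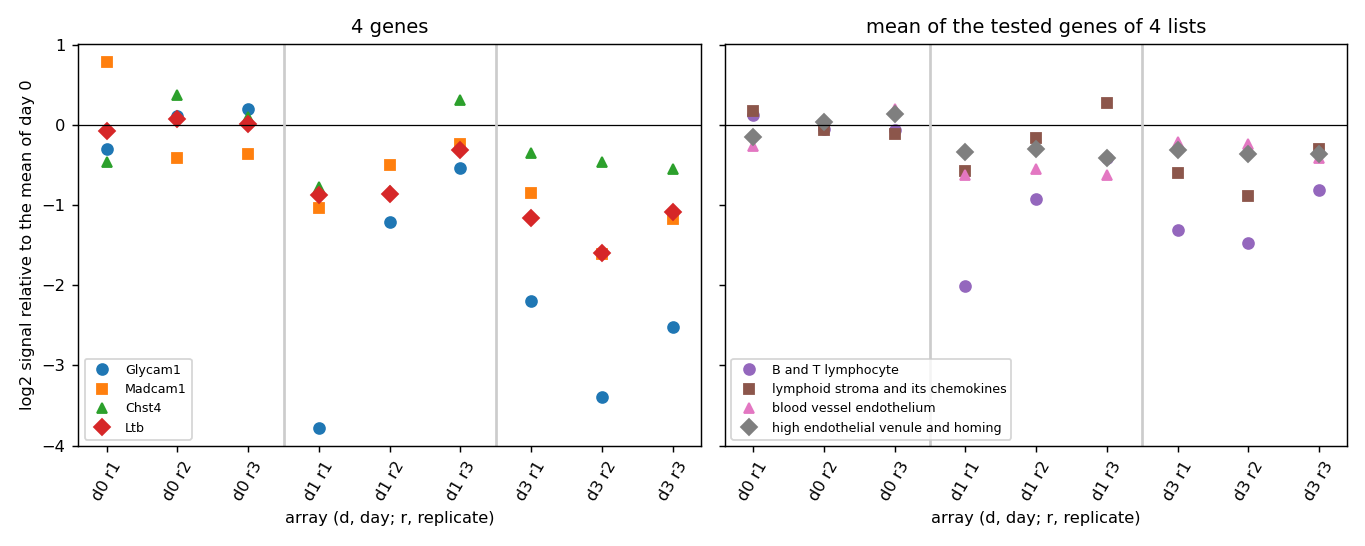
Log2 signal relative to the mean of day 0 (vertical axis) on each of the 9 arrays, for Glycam1, Madcam1, Chst4 and Ltb (left) and as the mean of the tested genes of 4 lists (right), the grey lines parting the days. Glycam1 and the lymphocyte list are lowest among the day 1 arrays on replicate 1 and highest on replicate 3, and on day 3 Glycam1 lies below the lymphocyte list on every array.

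The difference between a gene and a list on this scale shows how far they went together. Ltb lay 0.43 above the lymphocyte list on day 1 (0.05 to 1.14 over the arrays) and -0.08 from it on day 3 (-0.28 to 0.15), so on day 3 it stood on both sides of the list. Its day 0 arrays ranged from -0.20 to 0.12, and both later days overlapped with them. Madcam1 lay 0.52 above the lymphocyte list on day 1 (0.17 to 0.97) and -0.01 from it on day 3 (-0.35 to 0.46). Its day 0 arrays ranged from -0.37 to 0.66, replicate 1 being the highest, and both later days overlapped with them. Glycam1 lay below the same list on all 6 arrays of days 1 and 3, at -0.73 on day 1 (-1.76 to -0.13) and at -1.50 on day 3 (-1.91 to -0.88). Its day 0 arrays ranged from -0.43 to 0.27. Day 1 replicates 2 (-0.30) and 3 (-0.13) lay inside that range, and the day 3 arrays lay below it. Against the vessel list Glycam1 stood at -2.41 on day 3 (-3.15 to -1.98) and Madcam1 at -0.92 (-1.37 to -0.64). On day 1 Madcam1 had been at 0.01 from the vessel list (-0.41 to 0.39). On day 0 it ranged from -0.56 to 1.04 against that list, replicate 1 again being the highest. These means therefore lean on 1 day 0 array. Gpr182 was at 0.13 from the vessel list on day 1 (0.02 to 0.27) and at -0.21 on day 3 (-0.27 to -0.17), and at -0.12 and -0.16 from the HEV list. Cd209b was at -0.23 from the mean of the other sinus genes on day 1 (-0.45 to -0.09) and at -1.66 on day 3 (-1.92 to -1.27), where that mean holds genes that went both ways, such as Cd5l and Cd209d. The day 0 arrays ranged from -0.28 to 0.17 for Cd209b here and from -0.09 to 0.11 for Gpr182 against the vessel list. Ltbr lay above the lymphocyte list on every array of both days, by 1.47 on day 1 (0.46 to 2.60) and by 1.68 on day 3 (1.08 to 2.02). These differences carry no test, and the part of lymphocyte or vessel content in the values of the 7 genes was not tested.

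Genes whose course over the 9 arrays was most like that of Glycam1, Madcam1, Cd209b or Ltb were found by the root mean square difference in log2 signal relative to day 0. These are the 4 of the 7 genes whose day means differed by at least 1 log2 unit. For Glycam1 they were Dscaml1 (0.45), Wif1 (0.68) and Cd96 (0.72), of which the nearest had differences of -2.04 and -2.43 from day 0 on days 1 and 3. For Madcam1 they were Cldn11 (0.21), Cpm (0.24) and Tnfrsf13c (0.26). For Cd209b they were Amy1 (0.20), Ppp2r2b (0.26) and its relative Cd209d (0.27). For Ltb they were Rasd1 (0.12), Slc14a1 (0.15) and C1ql3 (0.18). Among the pairs that hold at least 1 of these 4 genes, the closest pair within the 7 was Madcam1 and Ltb, at 0.39, with Ltb ranking 82 among all genes nearest to Madcam1 and Madcam1 ranking 369 among those nearest to Ltb. The arrays share scaling and platform, and the number of arrays limits the precision of such distances.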

How the data were processed

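RNA of 9 SVF samples was hybridised to Affymetrix Mouse430_2 arrays. The authors summarised probe intensities to 45101 probe set signals with MAS5, and the deposited intensity values are linear signals scaled to a mean of 500 after trimming 2% at each end, with a detection call and its detection p-value. The authors' value table equals these signals within 5e-04 percent. Present calls covered 53.4% to 58.3% of probe sets per array, and the 3' to 5' actin ratio was 1.15 to 1.32. Genes were named from the platform annotation, in which 34945 probe sets have 1 symbol, 932 several and 9160 none, with 64 controls. A gene was represented by its brightest probe set of 1 symbol among those with present calls throughout at least 1 day (11796 genes).

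Log2 signals were fitted with limma 3.58.1 in R 4.3.3 (day as factor, variance trend, 6 residual degrees of freedom). P-values were two-sided, with Benjamini-Hochberg adjustment across all genes and calls at an adjusted p under 0.05. The fit was tested on simulated data. The 7 genes and the lists were chosen with earlier results of these data known. Named are the 7 genes, of each list up to 3 called genes with the largest difference in each direction on days 1 and 3, the largest called differences between these days, and the defining markers. A fold written with "at least" belongs to a probe set with no present call on the dimmer day. It is taken against its own signal or the array's faintest present signal, whichever is higher, and in the former case it equals the estimate. It does not allow for the standard error, so it is no confidence limit. Promoters came from RefSeq (GRCm38.p6). Python 3.11.15, pandas 2.3.3 and numpy 2.4.6 made the summaries. With 3 mice per day, the number of arrays limits the precision.

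As alternatives, arrays were quantile normalized or centred on their median, and 16 or 64 was added to each signal. The filter was dropped or widened to all 9 arrays. Probe sets were averaged, and those sharing transcripts were dropped. The variance trend was dropped, only the 6 arrays compared were fitted, a replicate block was added, and each array was left out. An analysis of variance by day with the methods' 2-fold limit was also run. The methods name a repeated-measurements analysis of variance, whereas here day was the only factor. Its p-value covers all days together, is unadjusted and was used for every comparison.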

Additional observations from a re-analysis of the deposited data

How the results depend on the processing

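Across alternatives that keep all arrays, 215 of 216 values of the 7 genes stayed within 1 SD of the reported value. The exception was Gpr182 on day 1, at -0.26 with quantile normalization. The SD is the gene's own residual SD in the fit. The filters, the replicate block, the authors' value table and the fit of only the arrays compared kept a gene's probe set and arrays. These settings could hardly move its difference, so the count says little about robustness. No value exists for Glycam1, Madcam1 and Chst4 without probe sets that share transcripts, since theirs are of that kind. Madcam1 and Chst4 have none under presence on all 9 arrays.

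With an array left out, the difference of Glycam1 ranged from -2.49 to -0.88 on day 1, from -2.95 to -2.35 on day 3 and from -1.82 to -0.20 between these days. That of Madcam1 ranged from -0.80 to -0.20, from -1.42 to -0.82 and from -0.84 to -0.42, that of Chst4 from -0.80 to -0.23, from -0.69 to -0.27 and from -0.23 to 0.34, and that of Cd209b from -0.48 to -0.26, from -1.99 to -1.66 and from -1.62 to -1.29. For Gpr182 it ranged from -0.57 to -0.38, from -0.57 to -0.41 and from -0.09 to 0.07, for Ltb from -0.87 to -0.59, from -1.38 to -1.13 and from -0.70 to -0.42, and for Ltbr from 0.25 to 0.52, from 0.36 to 0.58 and from -0.04 to 0.22.

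Over all genes, 1268 were called higher and 2110 lower on day 1, 1600 and 1474 on day 3, and 1140 and 536 on day 3 against day 1. The analysis of variance by day with the methods' 2-fold limit gave 424 and 328, 522 and 338, and 245 and 200. Median centring gave 1272 lower genes on day 1, and 659 higher and 860 lower genes on day 3 against day 1. It took the share of lower genes among the calls of day 1 from 62.5% to 42.8%, and quantile normalization took it to 51.8%. For day 3 against day 1 that share was 32%, 56.6% and 39.5%. With only the 6 arrays compared, 1402 genes were lower on day 1. Leaving out an array gave 806 to 1685 higher and 1000 to 2863 lower genes on day 1, 1058 to 1807 and 831 to 1811 on day 3, and 474 to 1823 and 253 to 1000 between the later days.

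The 5 lymph node lists (HEV and homing, lymphotoxin, lymphoid stroma, sinus, lymphocyte) held 82 tested genes. Of these, 10 were higher and 26 lower on day 1, 12 and 36 on day 3, and 4 and 13 on day 3 against day 1. The shares over all genes were 10.7% and 17.9%, 13.6% and 12.5%, and 9.66% and 4.54%. For the 82 genes the analysis of variance gave 5 and 11, 7 and 16, and 2 lower between the later days. There, presence on all 9 arrays left 2 higher genes and the removal of probe sets that share transcripts left 8 lower genes. Leaving out an array gave 7 to 9 higher and 13 to 37 lower on day 1, 8 to 12 and 23 to 44 on day 3, and 2 to 7 and 8 to 18 between the later days. On day 1 the 13 lower genes came without day 0 replicate 3 and the 7 higher genes without day 0 replicate 1. The causes of these changes were not tested.

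The labels number the mice of each day 1 to 3. The deviations of same-numbered arrays correlated between -0.147 and 0.331, and those of other pairs between -0.402 and 0.308. Deviations from a mean of 3 arrays constrain each other. These correlations therefore cannot show whether same-numbered samples share more than a number. With the replicate block, 1332 genes were higher and 2177 lower on day 1, 1608 and 1549 on day 3, and 1130 and 616 between these days, and the day 3 call of Tnfsf14 had an adjusted p of 0.0528. Low signals limit Chst4 and Madcam1, which were not called present on every array.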
